A study of Mus musculus with 4 samples.

Results

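Cells with the Isl1 and Nkx2-5 signature of the anterior second heart field were selected from mouse embryonic cells of the Tbx1Cre lineage, and made up 284 of the 14243 barcodes in 4 single-cell RNA-seq libraries. A barcode was selected when it held at least 2 unique molecular identifiers (UMIs, each standing for 1 captured transcript) of Isl1 and at least 1 of Nkx2-5. It was left out when it held more than 2 UMIs of Arg1, of Tcf21 and Msc together, of Epcam, or of Cdh5 and Pecam1 together, or more than 9 of Myl7. These limits kept out, in that order, Arg1-rich cells, branchiomeric muscle progenitors, epithelium, endothelium and differentiated cardiomyocytes. The rule used measured UMIs, so the levels of these 9 genes describe the selection and are no finding.

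The libraries came from Swiss Webster embryos at embryonic day (E) 8.5 and E9.5. Control embryos (Ctrl) were Tbx1Cre/+;Rosa26-GFPflox/+, and conditional knockout embryos (cKO) were Tbx1Cre/flox;Rosa26-GFPflox/+, so every embryo carried the Cre knock-in, which replaces 1 copy of Tbx1, and the GFP reporter. The control is therefore heterozygous for Tbx1, and only cells in which the Tbx1 locus had driven Cre, and their descendants, were labelled. Embryos of 1 genotype and stage were pooled into a single library, from the upper body at E8.5 and from the pharyngeal apparatus with the heart at E9.5, and GFP-positive, DAPI-negative cells were sorted. There were no replicates, so genotype or stage and library cannot be told apart, no test between conditions was possible, and every interval given is a 95% interval of counting error only.

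The second heart field is mesoderm of the pharynx that stays proliferative while the heart tube forms and then adds cells to its poles. Its anterior part gives rise to the right ventricle and outflow tract, and is marked by Isl1, a LIM-homeobox factor, together with Fgf10, Hand2 and Mef2c. Tbx1, a T-box factor of the pharyngeal mesoderm, is required for this field to expand and is linked to DiGeorge syndrome.

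Libraries held between 1090 and 6266 barcodes and between 25391654 and 104773150 UMIs, with a median between 15910.5 and 23984 UMIs a barcode. Pairs of libraries shared between 2 and 55 barcode sequences, at most 1.01% of the smaller library. The cKO E9.5 library was deposited on a different gene table from the other 3, and comparisons used the 27514 gene identifiers common to both tables.

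Where 4 values are given, they stand for Ctrl E8.5, cKO E8.5, Ctrl E9.5 and cKO E9.5, in this order. Selected cells numbered 32 of 1434 barcodes (2.23%, exact interval 1.53 to 3.14), 40 of 1090 (3.67%, 2.63 to 4.96), 123 of 5453 (2.26%, 1.88 to 2.69) and 89 of 6266 (1.42%, 1.14 to 1.75). At E9.5 the share differed by -0.835 percentage points between cKO and Ctrl (Wald interval -1.33 to -0.344), more than counting error, and at E8.5 it was higher in cKO by 1.44 (interval 0.0853 to 2.79). With the barcodes that met the Isl1 and Nkx2-5 minimum as denominator, the E9.5 difference turned to 15.3 (interval 8.43 to 22.3). The E8.5 difference was then -2.90, with an interval (-15.9 to 10.1) that holds either sign. Barcodes that met this minimum numbered 89, 121, 578 and 243, or 6.21, 11.1, 10.6 and 3.88% of all barcodes. The selected cells were 36.0, 33.1, 21.3 and 36.6% of them. Of the barcodes that met this minimum at E9.5, 184 of 578 in Ctrl and 31 of 243 in cKO were over the Epcam limit, and 196 and 91 over the Arg1 limit. The Epcam limit thus took a larger share from Ctrl, and the Arg1 limit did not. The limit on Tcf21 and Msc, which 95 in Ctrl and 23 in cKO exceeded, also took a larger share from Ctrl. With every barcode thinned to 10000 UMIs before the rule was applied, the E8.5 difference was -0.135 percentage points and the E9.5 difference -1.33.

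**Figure D1:**
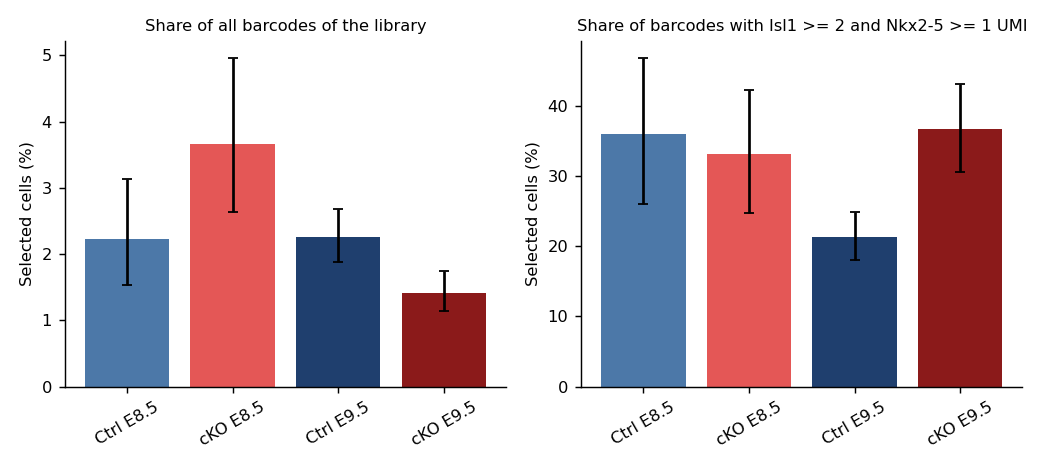
Bars give the selected cells as a percentage of all barcodes (left) and of the barcodes with at least 2 Isl1 and 1 Nkx2-5 UMI (right) in the 4 libraries, with exact 95% binomial intervals. At E9.5 the cKO bar is the lower one on the left (1.42 against 2.26%) and the higher one on the right (36.6 against 21.3%).

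The selected cells held 635590, 937692, 2048396 and 1702703 UMIs in all. Their median UMI count was 18788, 22632, 14860 and 17562, and the mitochondrial share of UMIs was 1.38, 2.09, 2.09 and 2.06%. The E8.5 sums were thus the shallowest, and their values carry the widest intervals. In each of the E9.5 libraries 6 selected cells held over 2 times the library's median UMIs, and none did at E8.5. No doublet caller was run, and without these deep cells 10 calls of named genes were lost.

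Many selected cells sat at the edge of the rule. Isl1 was at its minimum of 2 UMIs in 13, 10, 38 and 31 of the selected cells, and a further 21, 12, 26 and 35 barcodes met every other limit with 1 Isl1 UMI. Nkx2-5 was at its minimum of 1 in 17, 21, 49 and 45 selected cells, while 56, 32, 251 and 203 barcodes met the other limits with no Nkx2-5 UMI. In Ctrl E9.5 the Hand2 level, as UMIs per 1000000 UMIs of the cells concerned (UPM), was 98.9 in the selected cells with 2 Isl1 UMIs, 73.5 in the barcodes with 1 Isl1 UMI, 99.3 in the selected cells with 1 Nkx2-5 UMI and 23.7 in the barcodes with none. Barcodes without an Nkx2-5 UMI were thus the lower in Hand2, as in each library, with 55.6 and 37.9 in cKO E9.5. Across the Isl1 limit Hand2 went the other way in Ctrl E8.5, at 32.0 with 2 Isl1 UMIs and 42.4 with 1. Fgf10 with 1 and with no Nkx2-5 UMI was at 46.0 and 23.4, 15.8 and 15.4, 10.4 and 11.3, and 3.40 and 6.18. It was thus not lower without Nkx2-5 at E9.5. Myl7 was at 0 in 10, 15, 80 and 55 selected cells, and between 5 and 9 in 3, 3, 9 and 3.

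Tbx1 (chr16:18580979-18590671 in GRCm38.p6), the targeted gene, was examined first. The selected cells held 58, 55, 139 and 114 of its UMIs, in 26, 24, 58 and 46 cells. Its level was 91.3, 58.7, 67.9 and 67.0 UPM. The log2 ratio of cKO to Ctrl, centred on the median of all tested genes as all ratios that follow, was -0.63 at E8.5 (interval -1.19 to -0.08) and 0.16 at E9.5 (-0.21 to 0.53). In all other barcodes the ratios were 0.45 and 0.63, so that over the rest of the libraries labelled cKO Tbx1 transcript was not depleted. Counts per gene cannot show whether the floxed exon is present in a transcript, and this check therefore neither bears out nor contradicts the labels.

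The label was next checked against Fgf10, Hand2 and Mef2c, which the rule did not use. At least 1 UMI of the 3 was found in 27 of 32 (84.4%), 37 of 40 (92.5%), 106 of 123 (86.2%) and 74 of 89 cells (83.1%), and of Fgf10 or Hand2 alone in 21, 27, 89 and 55. These are cells at full depth with 1 UMI or more, of which free RNA can give some. With cells thinned to 10000 UMIs Mef2c was found in 65.6, 56.4, 61.8 and 51.7%, against 8.63, 12.6, 12.7 and 13.6% of cells with Foxd1 or Prrx1, a neighbouring mesenchyme. The list of the posterior second heart field described below was not counted in full here. Its Hox genes and at least 1 other listed gene were left out, so the full list could give higher counts. The posterior markers that were counted had a UMI in 4, 5, 16 and 20 cells, so that the selection also held cells with posterior transcripts. Tbx5, one of them, had a UMI in 0, 0, 6 and 3 cells, where 0 of 32 allows a share of cells with a UMI of up to 9.38% at this depth, which is no limit on cells that express it. Hoxb1, a posterior marker among the Hox genes left out, had a UMI in 9 cells of Ctrl E8.5 and 9 of Ctrl E9.5. Markers of blood were found in 0, 0, 1 and 3 cells and those of neural crest in 0, 1, 1 and 1. Few selected cells thus carried a UMI of either. Endothelial markers, of which the rule limited Cdh5 and Pecam1, were found in 14, 13, 24 and 10 cells. Their levels were 92.8, 182, 37.6 and 15.3 UPM, against 186, 182, 198 and 59.3 in all other barcodes. Msx1 or Msx2, markers of somatic mesoderm, had a UMI in 8, 14, 57 and 43 cells. The selection thus also held cells with such transcripts. The list of that mesoderm stood at 606, 388, 442 and 397 UPM, against 503, 400, 403 and 448 in all other barcodes.

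A small number of cells held neuronal or epithelial genes that went against the label. Of the 89 selected cells of cKO E9.5, 6 held between 16 and 109 UMIs of a list of 13 neuronal genes, and no other selected cell of that library held more than 3. These 6 cells had between 2 and 12 Isl1 UMIs, 1 or 2 Nkx2-5 UMIs and only 1 UMI of Hand2 and Mef2c in all. They contained every UMI of Neurog2 (54), Neurod1 (49) and Tlx2 (52) in the selected cells of that library, which are transcription factors of cranial sensory and autonomic neuron precursors. Isl1 is itself expressed in cranial neurons. In Ctrl E9.5 a single cell reached 10 neuronal UMIs, and none did at E8.5. At least 5 UMIs of 10 epithelial genes were held by 0, 1, 7 and 8 cells. Of the 8 in cKO E9.5, 3 were not among the neuronal cells, so that 9 cells of that library held either. The selected cells are therefore described by their rule, and values without the neuronal cells, the 1 of Ctrl E9.5 included, are given where they end a call.

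**Figure D2:**
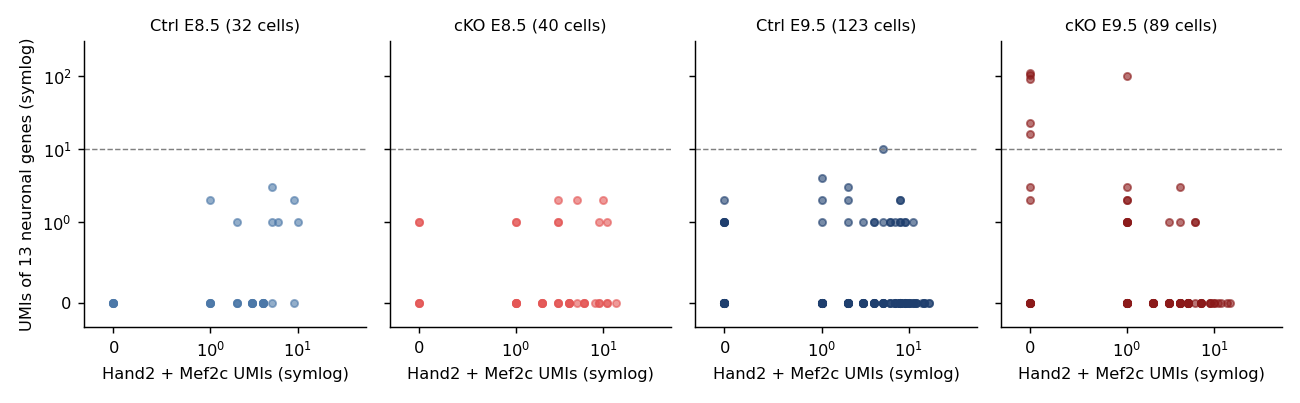
Each point is a selected cell, with its UMIs of Hand2 and Mef2c on the horizontal axis and of 13 neuronal genes on the vertical axis (both symmetric log scales), 1 panel per library, and the dashed line marks 10 neuronal UMIs. In cKO E9.5, 6 cells lie above the line with at most 1 UMI of Hand2 and Mef2c, against 1 cell at the line in Ctrl E9.5 and none at E8.5.

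Against all other barcodes of the same library, the leading genes of the selected cells were ranked. The ranking describes which transcripts accompany the selection and is no test, since the cells were chosen by expression. By the lowest of the 4 library log2 ratios, the first 15 included Capn6 (1.96 to 2.55), Igf2r (1.48 to 1.57), Nkx2-6 (1.81 to 3.02), Dlk1 (1.67 to 2.76) and Bmp4 (1.46 to 2.63), followed by Tnni1 (1.09 to 2.56), Mef2c (1.0005 to 1.94) and Hopx (0.93 to 1.98). Nkx2-6 is an NK homeobox factor of the pharynx and outflow tract, Bmp4 a ligand required for outflow septation, Tnni1 the slow troponin I of the embryonic heart, and Hopx a homeodomain protein of cardiac progenitors.

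The selected cells were also set beside 3 neighbouring populations of the same libraries, chosen by the excluded genes alone, whatever their Isl1 and Nkx2-5 UMIs, and low in Epcam, Cdh5 and Pecam1. Against the 292, 333, 354 and 864 barcodes with at least 3 Arg1 UMIs and at most 2 of Tcf21 and Msc, 18 genes of 7909 compared were higher and 28 lower by 2-fold or more in the selected cells in all 4 libraries. Nkx2-6 (log2 ratio 1.66 to 3.26), the Wnt target Sp5 (1.60 to 2.47) and Edn1 (1.49 to 4.88), which encodes endothelin, were higher. Lum (-3.79 to -3.19) and the somitic factor Meox1 (-3.61 to -2.44) were lower. The second population was the 84, 67, 374 and 262 barcodes with at least 3 Tcf21 and Msc UMIs and low Arg1 and Myl7. Against it, 22 genes of 5453 compared were higher and 7 lower by 2-fold or more in all 4 libraries. Hand2 (2.31 to 3.78), Mef2c (1.89 to 3.18) and Tnni1 (2.63 to 4.66) were higher. So were Hoxb2 (1.77 to 2.51), Hoxb3os (1.68 to 2.61) and the keratin genes Krt18 (1.89 to 3.92) and Krt8 (1.48 to 3.58). Ebf1 (-2.38 to -1.31), expressed in pharyngeal muscle progenitors, was lower. The third population was the 39, 38, 130 and 84 barcodes with at least 10 Myl7 UMIs. Against it, 12 genes of 4167 compared were higher and 101 lower by 2-fold or more in all 4 libraries. Edn1 (1.90 to 5.69) was higher and the ventricular light chain gene Myl3 (-9.21 to -6.77) lower. Of the leading genes, Mef2c stood at 315, 408, 513 and 432 UPM there, above the selected cells in each library. Capn6 (60.1, 63.0, 121 and 63.0 UPM there), Tnni1 and Igf2r were likewise above in each library. Bmp4 was above at E9.5 only (257 and 191 UPM), and Hopx in cKO E8.5 and Ctrl E9.5 only (215 and 146 UPM). The genes were named for these differences, and Myl3 is tied to the Myl7 limit, so the values describe the populations and support nothing further.

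Isl1 stood at 178, 175, 269 and 210 UPM and Nkx2-5 at 131, 90.6, 195 and 115, which the rule itself partly set. Hand2, a basic helix-loop-helix factor needed for right ventricle and outflow growth, stood at 44.1, 57.6, 105 and 75.8. Both E9.5 levels were above both E8.5 levels. Mef2c, whose anterior enhancer marks this field, stood at 115, 123, 194 and 103, so that Ctrl E9.5 was the high library. Bmp4 stood at 75.5, 88.5, 138 and 86.3. Ctrl E9.5 was again the highest.

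Fgf8 and Fgf10, the fibroblast growth factors secreted by this mesoderm, were highest at E8.5. Fgf8 stood at 137, 110, 37.6 and 21.1 UPM, with both E8.5 levels above both E9.5 levels. Fgf10 (chr13:118714699-118792573) stood at 34.6, 25.6, 18.1 and 4.11, from 22, 24, 37 and 7 UMIs. Sema3c (chr5:17574816-17730268), a guidance ligand expressed in the outflow tract, was near 0 at E8.5, with 1 UMI in each library, and stood at E9.5 at 39.5 UPM in the control and 12.9 in the knockout (81 and 22 UMIs).

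**Figure D3:**
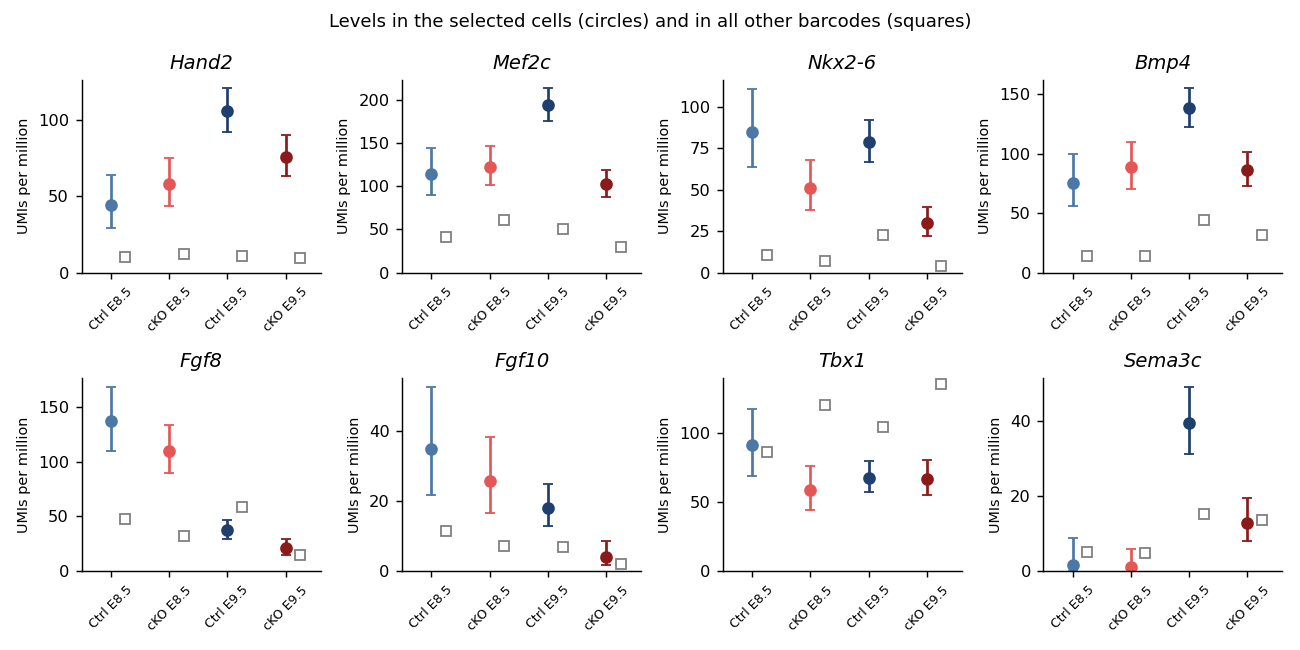
UMIs per 1000000 UMIs (UPM) of 8 genes in the selected cells of the 4 libraries (circles, with exact 95% Poisson intervals) and in all other barcodes of the same library (squares). Fgf8 and Fgf10 are highest at E8.5, Sema3c is seen almost exclusively at E9.5, where Ctrl is at 39.5 and cKO at 12.9, and Tbx1 is at 67.9 and 67.0 in the same libraries.

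After each cell was thinned to 10000 UMIs, which kept 32, 39, 110 and 87 cells, Fgf10 was found in 28.1, 28.2, 15.5 and 3.45% of cells. In cells with Foxd1 or Prrx1, a mesenchyme taken as reference, the shares were 5.88, 3.02, 2.08 and 1.20%. These cells were thinned alike from medians of 19658, 25268, 17089 and 16855.5 UMIs, and whether they lack Fgf10 was not tested. The cKO E9.5 share (interval 0.717 to 9.75) could not be set apart from theirs at this depth. The Ctrl E9.5 share (9.27 to 23.6) lay above theirs. Without thinning the shares were 40.6, 47.5, 20.3 and 7.87%. Hand2 was found in 25, 30.8, 64.5 and 39.1% of thinned cells, against 5.88, 3.72, 2.62 and 4.05% in the Foxd1 or Prrx1 cells, and in 46.9, 45, 68.3 and 60.7% without thinning. Its UMIs were spread over more cells at E9.5 than at E8.5 in Ctrl. Sema3c was found in 3.13, 2.56, 28.2 and 8.05% of thinned cells, against 1.57, 3.02, 11.1 and 11.3%, in the Foxd1 or Prrx1 cells. In Ctrl E9.5 the share (interval 20.0 to 37.6) lay above that of those cells, and in cKO E9.5 (3.30 to 15.9) it did not.

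Co-detection of these genes in thinned cells was counted as a description. Fgf10 and Hand2 were found together in 2 of 32, 5 of 39, 11 of 110 and 2 of 87 cells, and Mef2c and Hand2 in 6, 9, 51 and 17. Sema3c and Hand2 were found together in 0, 0, 23 and 2 cells, so that nearly all such cells were in Ctrl E9.5.

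The first comparison asked how the selected cells of cKO differed from those of Ctrl at E9.5. UMIs were summed over the selected cells of each library, and a gene was called changed when its centred ratio was at least 2-fold with the counting interval on the same side of 0. Genes needed 30 UMIs over both sums, and the 9 genes of the rule were not counted. Of 7961 genes, 196 (2.46%) were higher and 244 (3.06%) lower in cKO, in all 440 (5.53%). Among all genes tested the median ratio is 0 by the centring, which removed a shift of -0.18. Without centring the split was 133 higher and 399 lower.

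Genes of the outflow tract and of the heart program included several that fell. Fgf10 fell in cKO at E9.5, from 18.1 to 4.11 UPM, with a ratio of -1.95 (interval -3.37 to -0.77). In all other barcodes it was at -1.42, so the selected cells differed from the rest of the library by -0.53. Sema3c fell by 1.43 on the log2 scale (interval -2.18 to -0.74), whereas in all other barcodes the ratio was 0.12. It was the single called gene of 9 tested outflow genes. Its ratio was -1.29 with the rule applied to thinned barcodes and -1.61 without the neuronal cells. In these sums fewer cells with a transcript and less of it per cell cannot be told apart.

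Of 13 tested cardiac transcription factors and regulators 0 were higher and 3 lower in cKO, with a list median of -0.44, against -0.30 in all other barcodes. Nkx2-6 stood at 78.6 UPM in Ctrl and 29.95 in cKO (ratio -1.21, interval -1.69 to -0.75), and was lower still in the other barcodes, at -2.26. Myocd, a coactivator of smooth and cardiac muscle genes, held 27 and 6 UMIs (ratio -1.72). Smyd1, a muscle methyltransferase, held 98 and 35 (-1.04, and -0.93 without the neuronal cells). The latter pair did not keep the call when the rule was applied to thinned barcodes, at -0.15 and 0.16. Mef2c (-0.74, interval -1.003 to -0.48), Gata5 (-0.69), Bmp4 (-0.50) and Hand2 (-0.30, interval -0.62 to 0.03) did not reach 2-fold. Fgf8 was at -0.65 in the selected cells and -1.80 in all other barcodes.

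The list called sarcomere genes holds genes of the contractile apparatus, smooth muscle actin Acta2 among them, and others such as Nppa, Pln, Slc8a1 and Ankrd1. Of 16 tested, 0 were higher and 6 lower, with a list median of -0.70 against -0.56 in all other barcodes. Cardiac actin Actc1 stood at 79.1 UPM in Ctrl and 31.7 in cKO (-1.14), atrial light chain Myl4 at 131 and 39.9 (-1.53) and Nebl, a Z-disc protein, at 44.9 and 17.0 (-1.22). Ankrd1, a mechanosensitive cofactor, held 103 and 18 UMIs (-2.07), Tnnc1 50 and 13 (-1.50) and Myh7 50 and 15 (-1.29). The limit on Myl7 bears on these genes, because it decides how far a differentiating cell may have gone and still be selected. With the rule applied to thinned barcodes 2 were higher and 0 lower of 17, with a median of 0.54, so their direction depended on the selection. Under this setting Actc1 was at 0.61 and Ankrd1 at 0.62. Without the cell of each library that held most Actc1, that gene was at -0.63.

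The promoters of 3 contractile genes called in these comparisons are shown because they hold a CArG box, the element bound by serum response factor in many muscle genes. Each runs from 250 bases before to 50 after an annotated transcript start in RefSeq (GRCm38.p6), with the CArG box in capitals. This start is the outer end of the gene for Actc1, whereas for Myl9 and Nebl it lies inside the annotated gene.
Actc1: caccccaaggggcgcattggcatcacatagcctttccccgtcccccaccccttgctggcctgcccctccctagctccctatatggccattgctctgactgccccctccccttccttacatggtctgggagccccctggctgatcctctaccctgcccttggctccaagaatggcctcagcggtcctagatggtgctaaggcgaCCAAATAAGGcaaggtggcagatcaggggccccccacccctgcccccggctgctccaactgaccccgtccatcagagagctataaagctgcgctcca
Myl9: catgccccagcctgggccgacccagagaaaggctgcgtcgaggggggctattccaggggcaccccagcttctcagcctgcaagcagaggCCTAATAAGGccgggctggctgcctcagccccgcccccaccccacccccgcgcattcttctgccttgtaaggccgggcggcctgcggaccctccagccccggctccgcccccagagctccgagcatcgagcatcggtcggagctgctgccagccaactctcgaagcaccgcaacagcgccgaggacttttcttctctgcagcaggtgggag
Nebl: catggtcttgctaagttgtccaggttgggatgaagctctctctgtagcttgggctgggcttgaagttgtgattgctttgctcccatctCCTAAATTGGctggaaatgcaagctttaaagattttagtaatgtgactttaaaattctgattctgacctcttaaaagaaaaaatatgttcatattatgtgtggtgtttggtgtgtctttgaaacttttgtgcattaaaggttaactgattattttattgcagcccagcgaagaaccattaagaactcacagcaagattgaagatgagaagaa
The windows are chr2:114052826-114053125 (minus strand) for Actc1, chr2:156775214-156775513 (plus strand) for Myl9 and chr2:17462807-17463106 (minus strand) for Nebl. A CArG box, which reads alike on both strands, was found in 4 of 31 windows of the sarcomere list (12.9%), those of Actc1, Myl3, Myl9 and Nebl, and in 535 of 32851 windows of all genes (1.63%). This match of letters is a description, and no binding was measured.

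Some secreted regulators and signalling genes were lower in cKO at E9.5. Fst, which encodes the activin and BMP antagonist follistatin, stood at 37.6 UPM in Ctrl and 9.40 in cKO (-1.82). Sp5, a target of Wnt signalling, held 38 and 10 UMIs (-1.48), the matrix gene Tnc 95 and 31 (-1.17), the VEGF receptor gene Kdr 38 and 9 (-1.63) and Vegfa 28 and 6 (-1.77). Each of these genes was at least 2-fold lower, and Kdr was lower also in all other barcodes (-1.23). Of 9 tested branchiomeric muscle genes 0 were higher and 2 lower, the homeobox genes Tlx1 (-1.33) and Lhx2 (-1.14), which were lower also in all other barcodes (-1.73 and -1.76). Without the neuronal cells Lhx2 was at -0.94.

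Higher in cKO at E9.5 were Id4, an inhibitor of helix-loop-helix factors (18 and 32 UMIs, 1.28, interval 0.40 to 2.20), Has2, the hyaluronan synthase of the cardiac cushions (24 and 38 UMIs, 1.11), the adhesion gene Ncam1 (22 and 37, 1.20) and Myc (12 and 30, 1.77, interval 0.76 to 2.87). Id4 was at -0.56 in all other barcodes and at -0.10 with the thinned rule, so its rise depended on the selection. Ncam1 was at -0.19 once the ratio of all other barcodes was subtracted, so it rose there as well. Meox1 was at 1.23, but at 0.92 without the neuronal cells and at 1.88 in all other barcodes.

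The genes with the highest ratios in cKO at E9.5 were neuronal. Neurog2 held 54 UMIs in cKO and 0 in Ctrl, a ratio of at least 4.62 with the Ctrl sum set to 3 UMIs, and Tlx2 (at least 4.56) was alike. Neurod1 was at 6.06 (interval 3.52 to 11.39) and Sct, which encodes secretin, at 5.58. In the 83 cells without the 6 neuronal ones Neurog2, Neurod1, Phox2a and Tlx2 were at 0 UMIs, and Sct at 6. By contrast Wfdc2, at 2.27, held 45 UMIs in the remaining cells and 15 in the 6. Without these 6 cells and the 1 neuronal cell of Ctrl E9.5, 354 of the 440 calls were kept.

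Among the lowest ratios were Cnp (2 UMIs in cKO against 29 in Ctrl, -3.41, 12 of the 29 in 1 cell), Stra6, a retinol-binding protein receptor (-2.22), Tmem38b (-2.48), Sdpr, a caveolar protein (-1.997), and the Myh7-associated transcript Mhrt (-3.51). Igf2 (-4.39) and Pgk1 (3.84) had like ratios in all other barcodes (-4.62 and 4.07), and the part of the differing gene table in them was not tested. Of the 440 calls, 123 were also 2-fold beyond the change in all other barcodes.

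Calls among response genes of the FGF and BMP pathways stand beside the 5.53% called of all genes tested at E9.5. Of 9 FGF response genes 0 were called in either direction at E9.5, with Spry1 at 15.1 and 13.5 UPM, Spry2 at 43.4 and 31.1 and Dusp6 at 92.3 and 47.0 in Ctrl and cKO. Of 8 BMP response genes only Id4 was called. None of 6 posterior second heart field genes was called, and of 17 genes of adhesion and polarity of the pericardial wall 2 were higher and 1 lower.

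**Figure D4:**
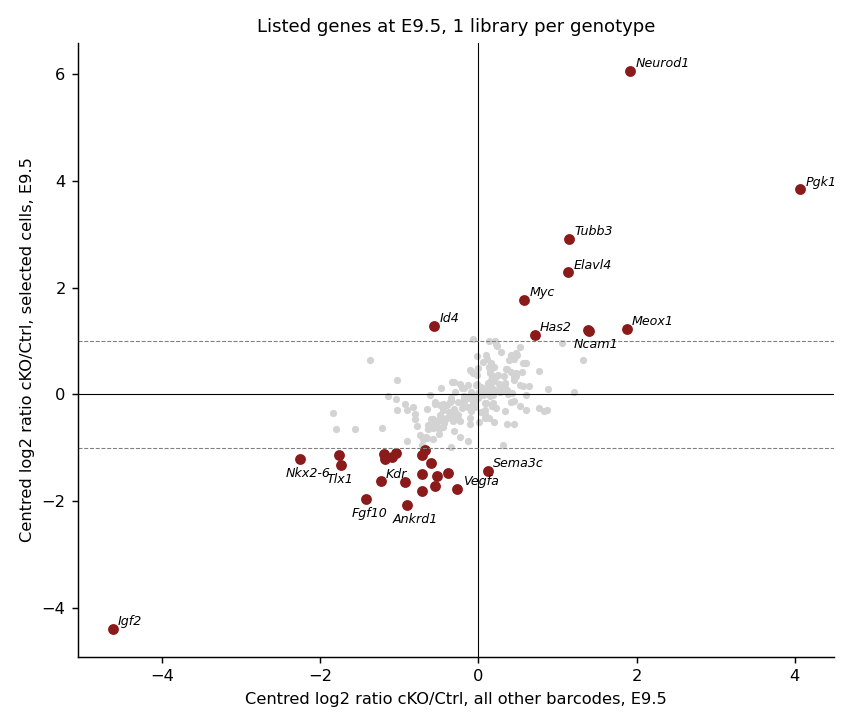
Each point is a tested gene of the lists, with its centred log2 ratio of cKO to Ctrl at E9.5 in all other barcodes (horizontal) and in the selected cells (vertical). Dark red points are called genes, some of them named, and dashed lines mark 2-fold. Sema3c lies at -1.43 in the selected cells and 0.12 in the others, while Fgf10 and Nkx2-6 are lower in both.

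At E8.5 the same comparison rested on 32 and 40 cells. Of 4893 genes, 146 (2.98%) were higher and 66 (1.35%) lower in cKO, in all 212 (4.33%). None of the 7 cardiac transcription factors, 5 outflow genes and 6 FGF response genes tested was called in either direction. Fgf10 was at -0.43 (interval -1.33 to 0.47), Fgf8 at -0.31 (-0.74 to 0.11), Hand2 at 0.39 (-0.29 to 1.10) and Mef2c at 0.10 (-0.34 to 0.54). At this depth these intervals hold a change of either sign. Whether the Fgf10 ratio differed between E8.5 and E9.5 was not tested.

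Genes of the multilineage progenitor list included 0 higher and 2 lower of 7 in cKO at E8.5, with a median of -0.70, against -0.12 in all other barcodes. Aplnr, the apelin receptor gene of early cardiac mesoderm, held 30 and 10 UMIs (47.2 and 10.7 UPM, -2.14, interval -3.34 to -1.07). Nrg1, a ligand of ERBB receptors, held 30 and 14 (-1.66, interval -2.69 to -0.70). In all other barcodes these genes were at -0.69 and -0.57. With the thinned rule Aplnr was at 0.22, so that its direction depended on the selection. Fst (-1.34, interval -2.02 to -0.69) and Myl9 (-1.09, interval -1.85 to -0.34) fell as well.

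Of 5 tested Notch genes 2 rose and 0 fell in cKO at E8.5. Hes1, a Notch effector, stood at 73.9 and 186 UPM (1.33, interval 0.86 to 1.83) and at 0.78 in all other barcodes. The ligand gene Jag1 held 7 and 28 UMIs (1.44, interval 0.21 to 2.88) and was at -0.23 in all other barcodes. Bambi, a BMP pseudoreceptor, was at 40.9 and 87.4 UPM (1.10), and Gli3, a Hedgehog effector, held 17 and 60 UMIs (1.26). The mesenchymal factor Foxc1 (1.18) was higher, as were the basement membrane genes Lama1 (1.54) and Col4a1 (1.13), the 2 called of 13 genes of adhesion and polarity of the pericardial wall. Etv2, a factor that starts endothelial development, held 27 and 102 UMIs (1.36), in only 6 and 8 cells. Endothelial marker levels at E8.5 were 92.8 UPM in Ctrl and 182 in cKO, and their part in these results was not tested.

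Several of the highest ratios at E8.5 rested on few cells. Lepr held 1 and 40 UMIs (4.76), 17 of them in 1 cell, P3h3 held 2 and 59 (4.32), 37 of them in 1 cell, and Tulp3 4 and 79 (3.75), 49 of them in 1 cell. Apela, which encodes a ligand of the apelin receptor, held 2 and 34 (3.53). Gfod2 was at 2.18, with 57 of its 87 cKO UMIs in 1 cell, and at 0.99 without the top cell of each library. Among the lower genes Gclm was at -1.28 and at -0.18 without the top cell of each library, whereas the netrin receptor homologue Igdcc3 (-1.76) and the corepressor Runx1t1 (-1.76) were among the lowest ratios. With the thinned rule 37 of the 212 calls were kept, the smallest share of the 4 comparisons. This rule left 18 cells in cKO and 25 in Ctrl, and 3503 tested genes. Loss of counts and change of selection therefore cannot be told apart here.

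The third comparison asked how selected cells of Ctrl changed between stages. Of 7027 genes, 372 (5.29%) were higher and 265 (3.77%) lower at E9.5, in all 637 (9.07%), after a shift of 0.27 was removed. Without centring 747 were higher and 127 lower. Different tissue was dissected at E8.5 and E9.5, which cannot be told apart from stage.

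Several cardiac and outflow genes rose with stage in Ctrl. Hand1 held 2 UMIs at E8.5 and 74 at E9.5 (3.26, interval 1.35 to 6.33), Gata5 stood at 11 and 76.2 UPM (2.52, interval 1.45 to 3.86) and Smyd1 at 7.87 and 47.8 (2.34). Hopx fell from 203 to 111 (-1.14). In all, 3 were higher and 1 lower of 12 cardiac factors, with a median of 0.77 against -0.28 in all other barcodes. Of 9 outflow genes 4 were higher and 0 lower, namely Sema3c (4.39, interval 1.87 to 9.71, and 1.23 in all other barcodes), Rgs5 (2.58), the semaphorin coreceptor gene Nrp2 (1.60) and the netrin receptor gene Unc5b (1.32). Hand2 (0.99, interval 0.42 to 1.62) lay just under 2-fold, and Gata6 (0.997, interval 0.22 to 1.88) near it.

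Genes of the sarcomere list, smooth muscle genes included, changed in 11 of 16 cases, all higher at E9.5. Their median was 1.63 against -0.14 in all other barcodes. Smooth muscle actin Acta2 rose from 36.2 to 382 UPM (3.14, interval 2.54 to 3.80), Tagln from 17.3 to 186 (3.16), titin Ttn from 3.15 to 86.4 (4.51), Myl9 from 61.4 to 221 (1.58), and Tnni1 from 175 to 448 (1.09, interval 0.81 to 1.39). One cell held 121 of the 381 Tagln UMIs of Ctrl E9.5. With the thinned rule 3 were higher and 1 lower, the median was 0.65, Actc1 was at -0.33 and Tnni1 at -0.05, so the rise depended on the selection, and the part of the Myl7 limit alone was not tested.

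In cKO, of 6660 genes 331 (4.97%) were higher and 276 (4.14%) lower at E9.5, in all 607 (9.11%). Of 13 genes of the sarcomere list 6 were higher and 0 lower, with a median of 0.76 against -0.35 in all other barcodes. Actc1, Tnni1 and Ttn were among those called. Acta2 rose from 27.7 to 214 UPM (2.89), Tagln from 25.6 to 137 (2.36) and Myl9 from 28.8 to 101 (1.75). A single cell of cKO E9.5 held 173 of its 365 Acta2 UMIs. With the thinned rule 7 were higher and 0 lower of 16, with a median of 1.02. Weighting each cell equally turned Ttn from 1.33 to -0.66 and Actc1 from 1.25 to -1.16. Hand1 (4.32, interval 1.76 to 9.66), Gata5 (1.52) and Rgs5 (1.60) rose as in Ctrl, and Hopx fell (-1.21). Sema3c was at 3.53 (interval 0.91 to 8.90) from 1 and 22 UMIs, below the minimum for a call. Whether the stage ratios differed between genotypes was not tested, and the genotype comparison at E9.5 shares its libraries with them.

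**Figure D5:**
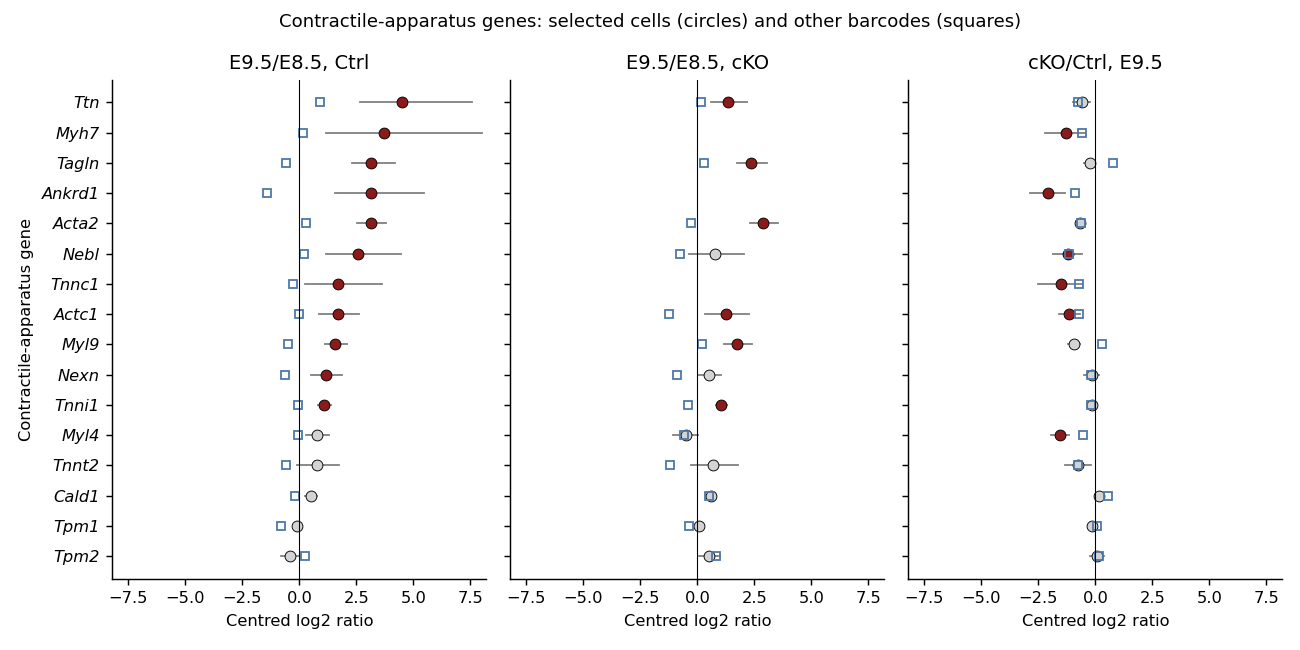
Centred log2 ratios of 16 genes of the sarcomere list between stages in Ctrl and in cKO and between genotypes at E9.5. Circles stand for the selected cells (dark red if called, grey if not, with 95% counting intervals) and blue squares for all other barcodes. Most circles lie right of 0 in both stage panels, with 11 of 16 called in Ctrl and 6 of 13 in cKO, and 6 of 16 are called lower in the genotype panel.

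FGF ligands fell with stage in both genotypes. Fgf8 was at -2.13 in Ctrl (interval -2.59 to -1.67) and -2.44 in cKO, and at -0.07 and -1.22 in all other barcodes. With the thinned rule the Ctrl ratio was -0.61, under 2-fold. Fgf10 was at -1.20 in Ctrl and -2.70 in cKO, and at -1.15 and -1.83 in all other barcodes. Of 9 FGF response genes 0 were higher and 2 lower in Ctrl, the feedback inhibitors Spry1 (-1.46) and Spry2 (-1.95). In cKO 0 were higher and 5 lower of 9, with a median of -1.04, namely Spry1 (-1.04, and -0.90 without the neuronal cells), Spry2 (-1.62), the ERK phosphatases Dusp4 (-1.37) and Dusp6 (-1.40), and the ETS factor Etv5 (-1.24).

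Of 7 tested BMP response genes 4 rose and 0 fell with stage in Ctrl, namely the inhibitory Smad6 (2.54) and Smad7 (1.26) and the homeobox genes Msx1 (1.71) and Msx2 (1.60). In cKO Smad7 rose by 1.996 and Bambi by 1.11, and Bambi rose by 2.08 in Ctrl. Id4 held 0 UMIs in cKO E8.5 and 32 in cKO E9.5, a ratio of at least 2.49.

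Of 7 tested genes of the posterior second heart field 4 rose and 1 fell with stage in Ctrl. Osr1 held 1 and 57 UMIs (3.88), Foxf1, a target of Hedgehog signalling, 1 and 33 (3.09), Nr2f1 2 and 39 (2.33), and Wnt2, found in only 6 cells at E9.5, 1 and 50 (3.69). Hoxb1 fell from 26.7 to 6.83 UPM (-2.23). In cKO Osr1 went from 0 to 48 UMIs, at least 3.08, and Nr2f1 was at 3.88. The list as a whole stood at 157, 143, 242 and 294 UPM, against 262, 287, 356 and 410 in all other barcodes, so it was lower in the selected cells in each library.

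Multilineage progenitor genes included 4 of 7 that fell with stage in Ctrl and none that rose, whereas in cKO 0 of 5 tested were called in either direction. Aplnr stood at 47.2 UPM at E8.5 and 13.2 at E9.5 (-2.11), Nrg1 at 47.2 and 5.86 (-3.28), Vamp8, a vesicle fusion protein, at 365 and 107 (-2.03), and Irx1 was at -1.32. In cKO Aplnr went from 10 UMIs to 1, too few for a call. Etv2 fell in cKO (-5.27), from 102 UMIs to 5. Fn1, which encodes fibronectin, fell in cKO from 466 to 126 UPM (-1.95), as did the laminin genes Lama1 (-1.92) and Lamb1 (-1.49) and the proliferation regulators Mycn (-1.34) and Myc (-1.34).

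Other genes with the highest stage ratios in Ctrl were Col9a2 (4.80), Nav2 (3.77), Fgfrl1, a receptor-like binder of FGFs (3.47), Phc1 (3.29) and Cacna1a (3.26). Among the lowest were Aard (-2.98), Man2a1 (-2.20), Igfbp3 (-2.15) and Plvap, an endothelial diaphragm protein (-2.03). In cKO the highest included Igf1 (4.12), the small heat shock gene Hspb1 (4.08) and Sparcl1 (3.40), and the lowest included Mgarp (-3.78, with 45 of its 58 UMIs in 1 cell), Phlda2 (-3.73) and P3h3 (-3.00). Hoxb4 was at 3.98, but 14 of its 30 UMIs in cKO E9.5 lay in neuronal cells, without which it was under the minimum for a call.

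Pathway and cell-state lists beyond these were small. Of all genes tested, 4.33 and 5.53% were called between genotypes at E8.5 and E9.5. Between stages 9.07 and 9.11% were called in Ctrl and cKO. In cKO against Ctrl at E9.5, no Notch (of 6), Hedgehog (of 6), forkhead (of 10), retinoic acid (of 6), T-box (of 3), sine oculis and Eya family (of 6) or WNT ligand gene (of 7) was called, and Sp5 was the single call of 5 WNT response genes. At E8.5 Frzb, a secreted WNT inhibitor (1.05), rose and Crabp1, which binds retinoic acid (-1.06), fell. Between stages Ptch1, the Hedgehog receptor and target, rose in Ctrl (1.05) and cKO (1.90), and Gas1, a Hedgehog coreceptor, rose in Ctrl (1.54) and cKO (1.03). Foxp2 rose in both (2.13 and 1.81), and Six2, a factor of pharyngeal mesenchyme, fell in both (-2.47 and -2.16). Dkk1, a WNT inhibitor, rose by 2.61 in Ctrl and 1.15 in cKO, against 0.06 and 0.85 in all other barcodes. Tbx3, a T-box repressor of the outflow tract and conduction system, rose in Ctrl (1.56).

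Of 14 imprinted genes 3 rose and 0 fell with stage in Ctrl, while in cKO 2 rose and 2 fell, with a median of 0.02. The 2 that fell were Igf2 (-4.96), which was alike in all other barcodes (-4.87), and Peg10 (-2.19). Plagl1, which encodes a zinc finger regulator of the imprinted network, rose by 2.92 in Ctrl and 2.38 in cKO, against 0.67 and 0.51 in all other barcodes. Dlk1 stood at 160, 363, 593 and 538 UPM and was called higher in Ctrl between stages (1.62) and in cKO at E8.5 (1.18). Glycolysis and hypoxia genes had medians of -0.65 in Ctrl and -0.52 in cKO between stages, against -0.87 and -0.72 in all other barcodes, with Hk2, a hexokinase, lower in both genotypes (-1.44 and -1.94).

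Calls among cell cycle genes stand beside the 4.33, 5.53, 9.07 and 9.11% called of all genes in the same comparisons. Of 18 S-phase genes 0 were called in either direction between genotypes at both stages and between stages in Ctrl, and Ccne2 was lower in cKO between stages. Of 18 G2/M genes Plk1 was the single call, lower in cKO at E8.5 and higher between stages in cKO, there under 2-fold (0.96) without the neuronal cells. At E9.5 the S-phase median was -0.36 in the selected cells and -0.45 in all other barcodes, and the G2/M medians were 0.17 and -0.03. Of 5 tested genes of the stress and dissociation response, Dnajb1 was lower in cKO at E8.5 and Hspa8 at E9.5.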

How the data were processed

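Single-cell RNA-seq of sorted GFP-positive cells was deposited by the authors as gene by barcode matrices of UMI counts, 1 per library, made with Cell Ranger 3.1.0 and the mm10 (GRCm38) genome per the submitters' processing notes, although per the file headers both E8.5 matrices carry an earlier version, and the E9.5 headers name none, so that software and stage cannot be told apart. The deposited counts are not normalized. The gene table held 31053 identifiers in the cKO E9.5 library and 27998 in the other 3, and the 27514 shared ones were used, which held between 99.4 and 99.9% of the UMIs. The authors' own cell type assignments were not used here.

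The 284 cells were selected by raw UMIs with the limits given at the opening, and were compared over summed UMIs with a conditional exact binomial interval (95%), a minimum of 30 UMIs over both sums, a floor of 3 UMIs for a sum of 0 and centring on the median of tested genes. With 1 library per group no test between conditions, no count model and no p-value was used. Shares carry exact Clopper-Pearson intervals and levels exact Poisson intervals. Shares of positive cells used cells thinned to 10000 UMIs (seed 7). The members and the 36 lists of 375 genes were chosen with earlier results of these data known. Named were genes of these lists, the 10 genes per direction and comparison with the largest smaller value of the ratio and its difference from all other barcodes, and the 15 leading genes. Alternatives were the rule on thinned barcodes, stricter limits, filtered barcodes (5000 UMIs, 10% mitochondrial), a minimum of 100 UMIs or none, TMM scaling, no centring, ratios less those of other barcodes, and means over cells. The further ones of leaving out neuronal cells, neuronal or epithelial cells, and each gene's top cell, were chosen after seeing the data. Scripts were tested on simulated data with 200 changed genes. Python 3.11.15, numpy 2.4.6, scipy 1.17.1, pandas 2.3.3, matplotlib 3.10.9, R 4.3.3 and edgeR 4.0.16 (TMM factors) were used. A few genes are not reported here.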

Additional observations from a re-analysis of the deposited data

Results flagged for a closer look

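In the selected cells 18 genes were called in the genotype comparisons of both stages, 10 of them in the same direction and 8 in opposite directions. Over all genes tested, 4.33% were called at E8.5 and 5.53% at E9.5. Whether the overlap exceeds what these shares give by themselves was not tested, nor was the difference between stages. Values are given for 2 of the genes with opposite directions. Ppp2cb, a catalytic subunit of protein phosphatase 2A, was at 1.70 at E8.5 (48 UMIs in cKO and 10 in Ctrl) and -1.32 at E9.5 (10 and 34), with 0.94 and -1.81 in all other barcodes. Rbm24, an RNA-binding protein of the heart and muscle, was at 1.03 (66 and 22 UMIs) and -1.03 (28 and 78), with 1.06 and -0.60 in all other barcodes.

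Identifiers outside the shared gene table, which no comparison used, held 2324 UMIs in the selected cells of cKO E9.5, or 0.136% of that library's UMIs in these cells, against 3903, 4262 and 12520 UMIs in Ctrl E8.5, cKO E8.5 and Ctrl E9.5.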

How the results depend on the processing

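With 1 library per group, counting error is the only error that could be given, and the smaller sums at E8.5 limit what can be called there. No paired analysis was possible because each group holds a single library. The share of selected cells, 1.44 percentage points higher in cKO at E8.5 and different by -0.835 points at E9.5, came to -0.135 and -1.33 with the rule on thinned barcodes, and -2.90 and 15.3 over barcodes with Isl1 and Nkx2-5. At E9.5 it was -0.053 with stricter upper limits and -2.20 with no Nkx2-5 minimum. Genes called, 212, 440, 637 and 607 in the order of cKO against Ctrl at E8.5 and E9.5 and E9.5 against E8.5 in Ctrl and cKO, were 33, 127, 231 and 186 with a minimum of 100 UMIs, 35, 222, 98 and 291 with stricter upper limits, and 107, 176, 288 and 214 after subtracting all other barcodes. At E8.5 they were 369 with no minimum, 135 with the rule on thinned barcodes and 117 with stricter Isl1 and Nkx2-5, which gave 408 and 381 between stages in Ctrl and cKO. Listed genes called, 21, 32, 62 and 60, were 6, 15, 33 and 30 with a minimum of 100 UMIs, and 2, 17, 8 and 31 with stricter upper limits. After subtracting all other barcodes 6 were called at E8.5 and 30 between stages in cKO. Stricter upper limits left 1 cell in Ctrl E8.5 and 6 in cKO E8.5, so no value of a single gene was given there, nor for genes under the minimum. Fgf10 was found with 2 or more UMIs in 6.25, 2.56, 3.64 and 0.0% of cells of Ctrl E8.5, cKO E8.5, Ctrl E9.5 and cKO E9.5, and without thinning in 47.5% of cKO E8.5. Hand2 was found with 2 or more UMIs in 30% (Ctrl E9.5) and 20.7% (cKO E9.5), and without thinning in 46.9% (Ctrl E8.5) and 60.7% (cKO E9.5).

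Of 2724 recomputed ratios of named genes 2456 kept direction and call, 228 lost the call and 40 changed sign, in each case with the cause not tested. Sign changes with the rule on thinned barcodes were Aplnr 0.22 and Plk1 0.45 (cKO against Ctrl, E8.5), Actc1 0.61, Smyd1 0.16, Tnnc1 0.17, Fbxl22 0.36, Id4 -0.10 and Ankrd1 0.62 (E9.5), Tnni1 -0.0483, Actc1 -0.33 and Etv2 1.27 (stage, Ctrl) and Plk1 -0.65 (stage, cKO). After subtracting all other barcodes they were Lhx2 0.63, Xist -0.20, Pgk1 -0.23, Igf2 0.23, Pfkl 0.078, Nkx2-6 1.05, Ncam1 -0.19, Meox1 -0.65 and Tlx1 0.40 (E9.5), Pgk1 0.19, Hopx 0.82, Hk2 0.65, Etv2 0.69, Fst 0.44 and Cldn6 -2.27 (stage, Ctrl), and Neurod1 -3.996, Pgk1 -0.29, Jun -0.41, Hopx 1.04, Hk2 0.52, Dusp4 0.10, Tubb3 -0.99, Eif2s3y 0.22 and Ddx3y 0.0473 (stage, cKO). Means over cells turned Ttn to -0.66 and Actc1 to -1.16 between stages in cKO, and Hes6 was at -0.0216 without the neuronal cells and -0.0136 without neuronal or epithelial ones.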

Other observations

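Genes that the study names as ectopic in cKO were rare in the selected cells. Pax8, a factor of thyroid and pharyngeal epithelium, held 0, 1, 5 and 4 UMIs in Ctrl E8.5, cKO E8.5, Ctrl E9.5 and cKO E9.5, Pax6 held 8, 14, 14 and 6, and the neurotrophin gene Bdnf 0, 1, 0 and 8. All were under the minimum for a comparison. Epithelial markers stood at 138, 81.1, 305 and 213 UMIs per 1000000 UMIs in the selected cells, against 88.3, 80.8, 353 and 114 in all other barcodes.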
